A study of Mus musculus with 16 samples.

Results

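Neutrophils sorted from the blood of germ-free (GF) mice were compared with neutrophils sorted from the blood of specific pathogen free (SPF) mice. GF animals are raised without living microorganisms, whereas SPF animals carry a microbiota and lack listed pathogens. The comparison took every blood library of the series by its label, 2 from GF and 2 from SPF mice, which is 4 of 16 libraries, and the other 12 came from spleen and lung. All animals were of the C57BL/6 strain, the labels name no other treatment or allele, and neither sex nor age is given in the sources used here. Cells were sorted on CD45, CD11b, Ly6G and exclusion of the dead-cell dye DAPI, and their RNA was amplified as complementary DNA with a single-cell kit and sequenced from both ends. Each library is labelled as coming from a mouse of its status, but no label says that the libraries of a group came from different mice, so the p-values below reflect only how far these libraries vary, and that variation may be technical.

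Neutrophils are short-lived phagocytes that leave the bone marrow, circulate for hours and carry preformed granules. Their production, ageing in the circulation and priming for killing are known to respond to microbial products that reach the marrow and blood from the gut. Interferons induce antiviral genes and the MHC class I pathway, in which the immunoproteasome cuts cytosolic proteins and the peptides are shown to T cells on heavy chains bound to beta-2 microglobulin.

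Depth was uneven. The deposited values allow reads to be recovered, and GF replicate 2 held 2555255 reads, GF replicate 3 held 132798, SPF replicate 3 held 2870559 and SPF replicate 4 held 3033941. A level is a normalised count, which is the deposited depth-scaled value after its offset of 0.5 reads is taken off. In GF replicate 3 a single read was worth 7.41 normalised counts and 37.7% of the 10296 listed genes had 0 reads, against 0.392 to 0.468 and 5.79% to 8.24% in the other 3 libraries. A count of 0 in GF replicate 3 allows a level of up to 22.2 normalised counts (3 reads, counting error only). The 2 GF libraries correlated less closely with each other (Spearman rho of 0.876 across the 8299 tested genes) than GF replicate 2 did with the SPF libraries (0.925 and 0.937), and the SPF libraries correlated at 0.954.

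The sorted cells carried the defining neutrophil transcripts. All 15 neutrophil markers were tested, and their summed levels were 82193 and 63721 in the GF libraries against 103100.3 and 85155 in the SPF libraries. Ly6g, which encodes the antigen used for the sort, measured 97.3 and 29.6 in GF and 170.3 and 149 in SPF blood (log2 difference GF minus SPF -1.47, SE 0.60, limma adjusted p = 0.23). S100a8, a subunit of the cytosolic protein calprotectin, measured 16263 and 10939.8 against 26287 and 20731 (-0.81, adjusted p = 0.606). Transcripts of other cells were present. The 7 erythroid markers tested of 10, among them the haemoglobin genes, summed to 81801 and 99481 in GF and 44129.9 and 70493 in SPF libraries. The 10 platelet markers tested of 12 summed to 996 and 919 against 572 and 425. The B cell markers summed to less in both GF libraries (530 and 682) than in both SPF libraries (756 and 724). Sums of monocyte and macrophage markers overlapped (1902 and 1296 against 1583 and 1497). The T and NK cell markers summed to 9.35 and 7.41 against 16.7 and 12.2, with Gzma at 0 in all 4 libraries. Of the 8 marker sums, those of platelets and erythroid cells were above both SPF libraries in both GF libraries, and those of neutrophils and B cells were below both. Single members of the last 2 classes were split. The log2 difference was above 0 for 7 neutrophil markers and below 0 for 8. It was above 0 for 8 B cell markers and below 0 for 3. The B cell median was 0.41, and -0.30 without GF replicate 3. The T and NK sum of GF replicate 3 is a single read of Lck, so no order can be read for that class. In bulk RNA a different number of such cells and a different amount of RNA per cell cannot be told apart.

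**Figure D1:**
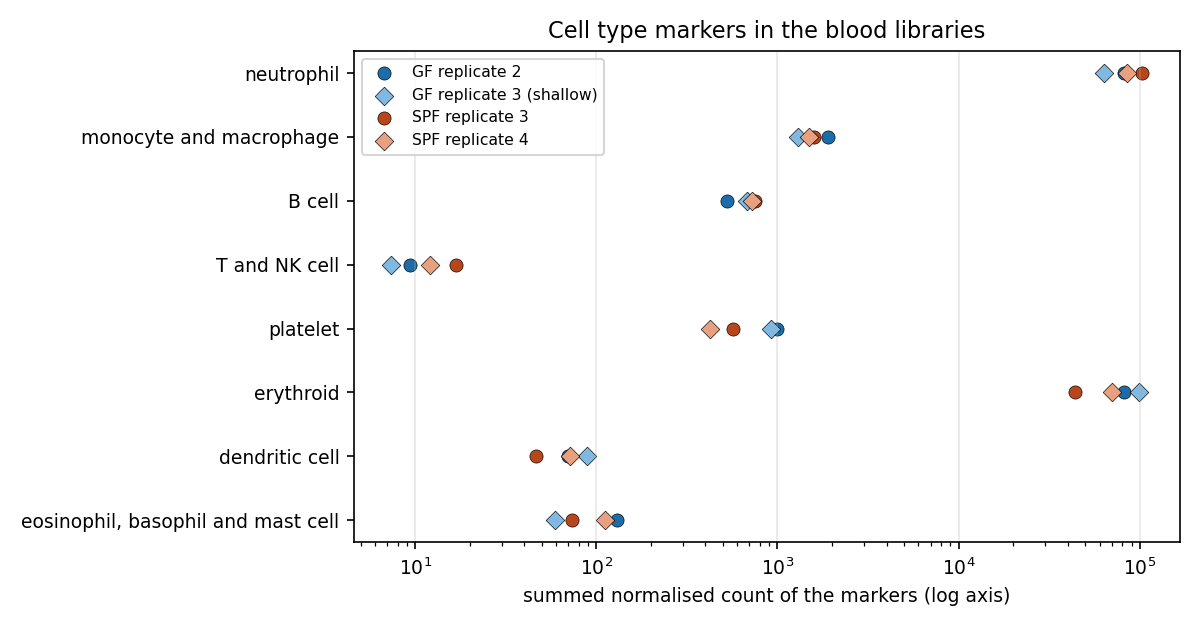
Summed normalised count (log axis) of the measured markers of 8 cell types, tested or below the filter, in each of the 4 blood libraries, 1 point per library. Platelet markers sum to 996 and 919 in the GF libraries and to 572 and 425 in the SPF libraries, and erythroid markers to 81801 and 99481 against 44129.9 and 70493.

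The comparison asked which transcripts of circulating neutrophils differ when mice lack a microbiota. At an adjusted p under 0.05 (limma on log2(value + 1), all 16 libraries in 1 model), 66 genes were higher in GF blood, which is 0.795% of 8299 tested, and 44 were lower, which is 0.53%. The unadjusted p was under 0.05 for 1367 genes, and the median log2 difference over all genes was 0.02. Groups of 2 separate often, since the GF libraries lay above both SPF libraries in 18.7% of all tested genes and below both in 30.5%, and all 110 genes that passed were among these. The count rests on single libraries: 7 genes passed without GF replicate 3, 280 without GF replicate 2, 2 without SPF replicate 3 and 30 without SPF replicate 4. It also rests on the model of the spread, since 0 genes passed without the trended and robust prior and 780 with precision weights by depth.

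The differences followed transcript length. Genes that were higher in GF blood had a median length of their longest annotated transcript of 4329.5 bases, genes that were lower had 1652 bases, and all tested genes had 3084 bases. Across the tested genes the Spearman rho of the difference with length was 0.27 in blood, 0.05 in spleen and 0.06 in lung (genes are not independent replicates, and the points share the same libraries). In the shortest decile the median log2 difference in blood was -0.68, and in the 8th decile it was 0.45. Relative to the mean of the 4 libraries, the shortest decile had a median of -0.20 in GF replicate 2, -0.45 in GF replicate 3, 0.44 in SPF replicate 3 and 0.25 in SPF replicate 4, so both libraries of a group bent the same way. Without GF replicate 3 the shortest decile stood at -0.55. With a smooth length trend removed from every library, an alternative chosen after seeing the data, 55 genes passed, 24 higher and 31 lower, and 44 of the 110 were among them. The cause of this trend was not tested, and the length-adjusted value is given below wherever it ends a call.

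**Figure D2:**
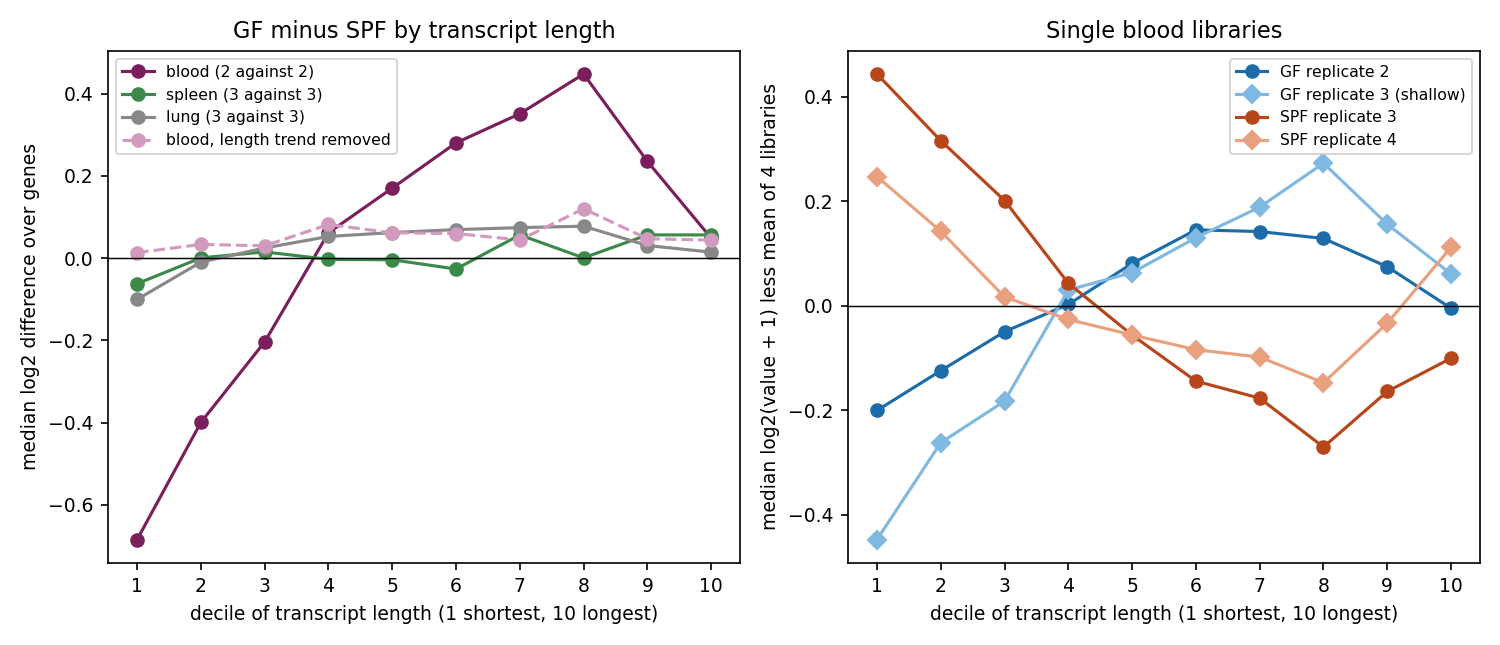
Median log2 difference GF minus SPF (left) and median level of each blood library relative to the mean of the 4 blood libraries (right), on the log2(value + 1) scale, for tested genes grouped into 10 deciles of transcript length. In blood the median runs from -0.68 in the shortest decile to 0.45 in the 8th, while spleen and lung stay between -0.10 and 0.08.

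In the MHC class I presentation list, H2-K1, B2m, Psmb8, Psmb9 and Psmb10 fell. These were 5 of the 25 listed genes, all tested, and 0 rose, where 0.53% of all tested genes fell. Both GF libraries lay below both SPF libraries in 18 of the 25, where 30.5% of all tested genes did so. The median log2 difference of the list was -0.94, beside 0.02 over all tested genes, and it was -0.14 in spleen and -0.13 in lung. B2m (ENSMUSG00000060802, chromosome 2, 122147686 to 122153083, GRCm38), the light chain shared by all class I molecules, measured 2395 and 2075 in GF and 7070.0 and 6269 in SPF libraries. The groups were far apart and each pair was close (log2 difference -1.58, SE 0.26, adjusted p = 0.00154). H2-K1 (ENSMUSG00000061232, chromosome 17, 33996017 to 34000347), a classical heavy chain, measured 871 and 800.0 in GF and 3209 and 2987 in SPF libraries (-1.89, SE 0.29, adjusted p = 0.00102). Reads of H2-K1 may be shared with near-identical class I genes, so its own level is uncertain. H2-D1, another classical heavy chain, chosen after its values were seen, measured 16582 and 16583 against 26779.8 and 22716 (-0.57, adjusted p = 0.155).

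All 3 catalytic subunits of the immunoproteasome fell. Psmb8 measured 265 and 193 in GF against 687 and 585 in SPF blood (log2 difference -1.47, SE 0.26, adjusted p = 0.00312). Psmb9 measured 129 and 74.1 against 304 and 312 (-1.61, SE 0.36, adjusted p = 0.018). Psmb10 measured 22.9 and 7.41 against 79.5 and 59.6 (-2.03, SE 0.48, adjusted p = 0.0274), where the GF replicate 3 value is a single read. These subunits replace their constitutive counterparts after interferon exposure. With the length trend removed, B2m (-0.87, adjusted p = 0.039), H2-K1 (-1.49, adjusted p = 0.00935) and Psmb8 (-1.08, adjusted p = 0.025) still passed and Psmb9 (adjusted p = 0.131) and Psmb10 (adjusted p = 0.138) did not, and the list median was -0.56. Without GF replicate 3, 0 members passed, with a list median of -0.86 and an adjusted p of 0.0541 for H2-K1 and 0.0713 for B2m.

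The promoters of the 3 genes that held their call without the length trend are shown because interferon and NF-kB act on class I genes through short promoter elements. Windows run from 250 bases before to 50 bases after the start (RefSeq, GRCm38.p6), 5′ to 3′ on the gene's strand. Capitals mark matches, on either strand, to the interferon-stimulated response element core GAAANNGAAA, the gamma-activated site TTCNNNGAA or the kappa B letters GGGNNTTNCC. B2m lies on the plus strand at chr2:122147437-122147736, H2-K1 (first of 2 listed starts) on the minus strand at chr17:34000298-34000597 and Psmb8 on the plus strand at chr17:34197945-34198244.
B2m: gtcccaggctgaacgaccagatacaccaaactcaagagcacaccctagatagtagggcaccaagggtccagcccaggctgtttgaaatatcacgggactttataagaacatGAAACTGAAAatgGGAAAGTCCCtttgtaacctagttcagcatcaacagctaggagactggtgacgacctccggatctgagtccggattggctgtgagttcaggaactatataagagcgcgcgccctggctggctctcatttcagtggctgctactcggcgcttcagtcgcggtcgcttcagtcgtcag
H2-K1: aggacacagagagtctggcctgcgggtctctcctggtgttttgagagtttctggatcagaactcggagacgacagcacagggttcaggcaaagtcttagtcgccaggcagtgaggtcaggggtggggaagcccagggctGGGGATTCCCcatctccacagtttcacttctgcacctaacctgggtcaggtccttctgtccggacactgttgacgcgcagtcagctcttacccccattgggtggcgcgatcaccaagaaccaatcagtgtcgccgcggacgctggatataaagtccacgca
Psmb8: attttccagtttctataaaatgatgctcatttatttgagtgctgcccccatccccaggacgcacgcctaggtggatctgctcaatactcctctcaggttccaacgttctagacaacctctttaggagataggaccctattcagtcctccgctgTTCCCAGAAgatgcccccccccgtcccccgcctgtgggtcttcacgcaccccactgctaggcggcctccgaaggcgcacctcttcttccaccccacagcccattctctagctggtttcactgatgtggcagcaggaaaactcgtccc
B2m held a response element core 139 bases and kappa B letters 126 bases before the start, H2-K1 held kappa B letters 111 bases before it, and Psmb8 held gamma-activated site letters 97 bases before it. The windows of Psmb9 and Psmb10, the other members that fell, held none of these letters. Of the 21 class I genes matched in the table, 5 held the response element core, 2 the gamma-activated site and 6 the kappa B letters. Over 27025 genes these shares were 3.99%, 9.55% and 5.48%. A match describes letters and is not a measured binding site.

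Of 63 listed interferon-stimulated genes, 57 were tested, 3 fell (Psmb8, Psmb9 and Zbp1) and 0 rose, where 0.53% of all tested genes fell. Both GF libraries lay below both SPF libraries in 35 of the 57, where 30.5% of all tested genes did so, and the median log2 difference was -0.49. The medians were 0.25 in spleen and 0.27 in lung. Zbp1, a sensor of left-handed nucleic acid helices that can trigger cell death, measured 18.2 and 0 in GF against 58.7 and 81.2 in SPF blood (-2.88, SE 0.63, adjusted p = 0.018, and -2.66 with an adjusted p of 0.0367 with the length trend removed). Sp110, an interferon-induced nuclear body protein that is not on the list, measured 25.1 and 0 against 60.2 and 55.3 (-2.40, SE 0.52, adjusted p = 0.0166). Both genes had 0 reads in GF replicate 3, and both GF libraries lay below the SPF libraries even at the 22.2 that 0 reads allow. Without GF replicate 3 they had adjusted p = 0.469 for Zbp1 and 0.533 for Sp110.

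Among interferon-stimulated genes, 2 whose blood difference passed against the spleen difference were chosen after their values were seen. Isg15, a ubiquitin-like modifier, measured 57.5 and 88.9 in GF against 177.5 and 194 in SPF blood (-1.33, SE 0.39, adjusted p = 0.0736). With the length trend removed its blood difference was -0.59 (adjusted p = 0.502). Its difference in spleen was 1.16 (adjusted p = 0.101). The test of the blood difference against the spleen difference gave -2.49 (adjusted p = 0.0191). Irf7, a transcription factor that amplifies type I interferon production, measured 361 and 304 against 696 and 679 (-1.04, adjusted p = 0.0964, and 0.168 with the length trend removed). Its difference was 0.69 in spleen, and the blood difference minus the spleen difference was -1.73 (adjusted p = 0.0431). These were 2 of the 57 list members in that test, which 0.759% of all tested genes passed. Ifngr2, a chain of the interferon gamma receptor, also chosen after its values were seen, measured 139 and 104 in GF against 289 and 311 in SPF blood (-1.29, SE 0.31, adjusted p = 0.0311, and adjusted p = 0.00935 with the length trend removed). It was lower in GF lung too, by -1.49 on the log2 scale (adjusted p = 0.0138).

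**Figure D3:**
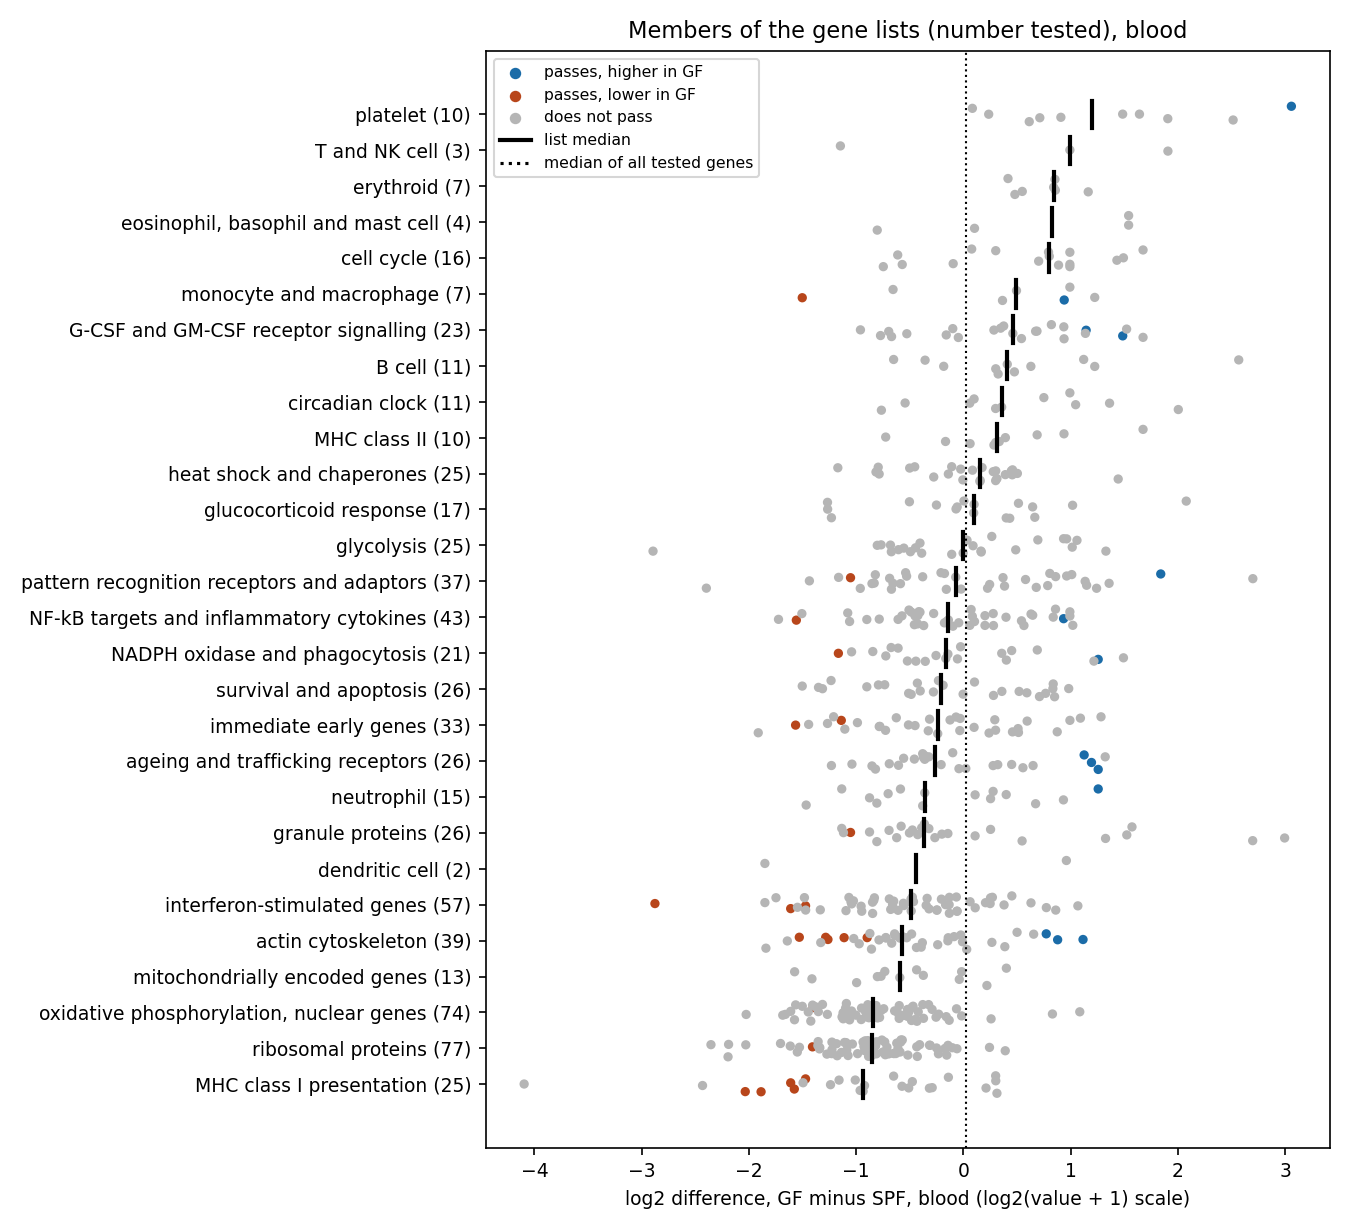
Log2 difference GF minus SPF in blood for every tested member of 28 gene lists, 1 point per gene, with the list median as a bar and the median of all tested genes as a dotted line. The MHC class I, ribosomal protein and respiratory chain lists lie lowest, with medians of -0.94, -0.85 and -0.85, and platelet markers highest, at 1.20.

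Malat1 showed the smallest p of the comparison. This long noncoding RNA (ENSMUSG00000092341, chromosome 19, 5795690 to 5802672) stays in the nucleus and associates with splicing speckles. It measured 1813 and 1241 in GF against 8729.8 and 6360.2 in SPF blood, with both GF libraries far below both SPF libraries (log2 difference -2.31, SE 0.24, adjusted p = 1.97e-06). It kept an adjusted p under 0.05 without GF replicate 3 (0.00247), without SPF replicate 3 (0.000952) and with the length trend removed (-2.38, adjusted p = 0.0101). The difference was 0.29 in spleen and 0.05 in lung, and Malat1 was the 1 gene, 0.012% of those tested, whose blood difference passed against the lung difference (-2.36, adjusted p = 0.000253). With the length trend removed 0 genes passed against lung, so Malat1 did not keep that call. Gm37376, a gene model inside the Malat1 locus chosen after its values were seen (5801941 to 5802393), differed by -2.31 as well, and the files do not allow the reads of overlapping genes to be told apart.

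Tlr13 was the 1 listed sensing gene that rose. Of the 43 listed pattern recognition receptors and adaptors, 37 were tested, and the list median was -0.07. Of these, 1 rose and 1 fell, where 0.795% of all tested genes rose and 0.53% fell. Tlr13 (ENSMUSG00000033777, chromosome X, 106143204 to 106160493), an endosomal receptor for bacterial ribosomal RNA, measured 1106 and 844 in GF against 235 and 309 in SPF blood. Both GF libraries exceeded both SPF libraries (1.84, SE 0.27, adjusted p = 0.000523), and the call held without GF replicate 3 (2.03, adjusted p = 0.0118) and with the length trend removed (1.52, adjusted p = 0.00325), but not without SPF replicate 3 (1.64, adjusted p = 0.0539). Its differences in spleen (0.70) and lung (0.47) had the same sign. Tlr2 measured 275 and 237 against 136 and 98.0 (1.15, adjusted p = 0.0528). Tlr7, a receptor for single-stranded RNA, measured 13.1 and 22.2 against 1.36 and 2.35 (2.70, adjusted p = 0.0585). Pglyrp1, a granule protein that binds bacterial peptidoglycan, was the member that fell, from 1992 and 1767 in SPF to 1026 and 793 in GF blood (-1.05, SE 0.25, adjusted p = 0.0282). Its transcript is 694 bases long, and with the length trend removed the difference was -0.29 (adjusted p = 0.58).

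Among cytokine receptors, Il4ra, a chain shared by the interleukin 4 and 13 receptors, measured 862 and 474 in GF against 176 and 297 in SPF blood (1.49, SE 0.30, adjusted p = 0.00946). It also passed without GF replicate 3 (1.91, adjusted p = 0.0195) but not without SPF replicate 3 (1.11, adjusted p = 0.334). Stat6, which transmits that receptor's signal, measured 1094 and 919 against 401 and 479 (1.19, SE 0.24, adjusted p = 0.0108). Il17ra, the signalling chain for interleukin 17, measured 1059 and 1022 against 296 and 488 (1.45, SE 0.28, adjusted p = 0.00753). Stat6 and Il17ra were chosen after their values were seen, and all 3 of these genes also passed with the length trend removed. Il1rap, the accessory chain of the interleukin 1 receptor, measured 553 and 385 against 147 and 131 (1.73, SE 0.41, adjusted p = 0.0412, and 0.137 with the length trend removed), and it differed by 1.53 in spleen (adjusted p = 0.0537). In the list of G-CSF and GM-CSF receptor signalling, 23 of 29 genes were tested, 2 rose (Il4ra and Stat5b) and 0 fell, with a median of 0.46. Il4ra is on that list although it is a chain of the interleukin 4 and 13 receptors. Among all tested genes 0.795% rose. Stat5b, which carries cytokine signals to the nucleus, measured 283 and 252 against 103 and 142 (1.14, SE 0.28, adjusted p = 0.0315, and 0.0999 with the length trend removed). Csf3r, the G-CSF receptor itself, measured 9748 and 7489 against 4844 and 5930.1 (0.67, adjusted p = 0.0695).

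Itgam and Itgal, which encode alpha chains of integrins used in firm adhesion, rose. Itgam, the alpha chain of the CD11b integrin and part of the sort, measured 1199.7 and 1099 in GF against 406 and 569 in SPF blood (1.26, SE 0.26, adjusted p = 0.0121). Another protein-coding gene model spans the Itgam locus, so the authors' counting may have split reads between them. Itgal, the alpha chain of LFA-1, measured 1158 and 1096 against 424 and 572 (1.19, SE 0.28, adjusted p = 0.0247). Both passed with the length trend removed (0.93, adjusted p = 0.045, and 0.94, adjusted p = 0.0447), and neither passed without GF replicate 3 (adjusted p = 0.105 and 0.194). Tnfrsf1b, a receptor for tumour necrosis factor, measured 1086 and 829.7 against 469.7 and 403 (1.13, SE 0.24, adjusted p = 0.0141, and 0.0754 with the length trend removed). These were the 3 that rose of 26 tested ageing and trafficking receptors, with 0 lower and a list median of -0.27. Among all tested genes 0.795% rose. The chemokine receptors used to describe neutrophil ageing did not pass. Cxcr4, which retains neutrophils in marrow, measured 68.2 and 51.9 in GF against 165 and 129 in SPF blood (-1.23, adjusted p = 0.0738), and Cxcr2, which draws them out, measured 6081 and 5091 against 7877 and 6484 (-0.36, adjusted p = 0.393).

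Inflammatory and stimulus-response transcripts moved little as groups. Of 45 listed NF-kB targets and inflammatory cytokines, 43 were tested, 1 rose (Plek, 0.93, adjusted p = 0.0412, and 0.175 with the length trend removed) and 1 fell (Il1b), with a median of -0.14. The shares over all tested genes were 0.795% higher and 0.53% lower. Il1b, which encodes the cytokine interleukin 1 beta, measured 4288 and 2822 in GF against 10489 and 10019 in SPF blood (-1.56, SE 0.31, adjusted p = 0.0216). Its transcript is 1356 bases long, and the adjusted p was 0.131 with the length trend removed and 0.243 without GF replicate 3. Of 33 tested immediate early genes, which respond quickly to stimuli and to cell handling, 2 fell (Ier2 and Atf3) and 0 rose, with a median of -0.24. Among all tested genes 0.53% fell. Ier2 measured 343 and 222 against 671 and 562 (-1.14, adjusted p = 0.0308), and Atf3 measured 145 and 59.3 against 336 and 240.4 (-1.56, adjusted p = 0.0412). Neither passed with the length trend removed (adjusted p = 0.187 and 0.081). Fos, a subunit of the AP-1 transcription factor chosen after its values were seen, measured 509 and 378 against 1481 and 1867 (-1.91, SE 0.68, adjusted p = 0.2).

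Actin cytoskeleton genes passed in both directions, but Cfl1 alone kept its call with the length trend removed. Of 39 actin cytoskeleton genes, 5 fell (Cfl1, Pfn1, Capg, Vasp and Myl12b) and 3 rose (Msn, Lcp1 and Capza1), with a median of -0.57. Among all tested genes 0.53% fell and 0.795% rose. With the length trend removed 0 were higher and 3 were lower, with a median of -0.31. Cfl1 was among these 3, and the other genes named above were not. Capg, Vasp, Myl12b and Capza1 were chosen after their values were seen, and their adjusted p was then 0.251, 0.0843, 0.081 and 0.112. Cfl1, which severs actin filaments, measured 729 and 340.2 in GF against 1528 and 1372 in SPF blood (-1.53, SE 0.27, adjusted p = 0.00276), and it passed with the length trend removed (-1.49, adjusted p = 0.00522). Pfn1, which feeds actin monomers to growing filaments, measured 2002 and 1237 against 3827 and 3035 (-1.11, adjusted p = 0.0189, and 0.345 with the length trend removed). Msn, which links actin to the membrane, measured 3409.7 and 2215 against 1182 and 1363 (1.12, SE 0.23, adjusted p = 0.0132), and Lcp1, a leukocyte actin bundler, measured 10233 and 8341 against 5139.6 and 5695 (0.77, SE 0.17, adjusted p = 0.0212). Msn passed without GF replicate 3 (adjusted p = 0.0308) but not without SPF replicate 3 (adjusted p = 0.298). With the length trend removed Msn and Lcp1 had an adjusted p of 0.0554 and 0.141. The transcripts of Cfl1 and Pfn1 are 2354 and 861 bases long, and those of Msn and Lcp1 3842 and 3841 bases.

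Ribosomal and respiratory genes, whose transcripts are short, lay low as groups. Of 77 tested ribosomal protein genes, 75 had a difference below 0 and 63 lay below both SPF libraries in both GF libraries. Of all tested genes 30.5% lay below in this way, and of the shortest length decile 64.8% did. Among the ribosomal genes 1 passed (Rpl13, -1.41, adjusted p = 0.0377), where 0.53% of all tested genes fell, and the median was -0.85. The 74 nuclear genes of oxidative phosphorylation had a median of -0.85 with 1 that fell (Ndufs7, -1.40, adjusted p = 0.0455), and the 13 mitochondrially encoded genes had a median of -0.59 with 0 called. Their median transcript lengths were 914, 891.5 and 784 bases, against 3084 over all tested genes. With the length trend removed the medians were -0.24, -0.15 and -0.03, and 0 members passed. The adjusted p was then 0.381 for Rpl13 and 0.417 for Ndufs7. The length-adjusted medians stand beside 0.05 over all tested genes.

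Granule protein genes, transcribed mainly in marrow precursors, showed 1 lower (Pglyrp1) and 0 higher of 26 tested, with a median of -0.36, and 0.10 with the length trend removed. In the list of the NADPH oxidase and phagocytosis, 21 of 22 genes were tested, 1 rose (Itgam) and 1 fell (Msrb1, -1.17, adjusted p = 0.0311), with a median of -0.16. For both lists the shares over all tested genes were 0.795% higher and 0.53% lower. With the length trend removed Msrb1, which reduces oxidised methionine, stood at -0.59 (adjusted p = 0.379). No member passed among 25 glycolysis genes (median -0.00), 26 survival and apoptosis genes (-0.21), 25 heat shock genes and chaperones (0.15), 17 glucocorticoid response genes (0.10), 11 clock genes (0.36), 10 MHC class II genes (0.32) or 16 cell cycle genes (0.80). Of the 16 cell cycle genes, 3 had 0 reads in all 4 blood libraries, where the deposited value is the offset alone and is larger in the shallow GF library. Without GF replicate 3 the cell cycle median was 0.03 and the MHC class II median was -0.25. Of the 10 class II genes, 0 lay above both SPF libraries in both GF libraries and 2 lay below. For all tested genes these shares were 18.7% and 30.5%.

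The largest increases included genes of low level and diverse function. Thbs1, which encodes thrombospondin 1, a matrix protein stored in platelets and also made by phagocytes, measured 117 and 252 in GF against 32.5 and 11.8 in SPF blood (3.06, SE 0.58, adjusted p = 0.0244, and 0.205 without GF replicate 3). It was higher in GF spleen as well (2.78, adjusted p = 0.0255). The other 9 tested platelet markers had differences between 0.08 and 2.51, none of which passed. Of the 10, 7 lay above both SPF libraries in both GF libraries, where 18.7% of all tested genes did so. The platelet chemokine genes Pf4 (116 and 74.1 against 109 and 72.9) and Ppbp (246 and 229.6 against 257 and 160.3), chosen after their values were seen, overlapped between the groups. The part of platelet RNA in the Thbs1 difference was not tested. Acly, which makes cytosolic acetyl-CoA, measured 132 and 148 against 28.9 and 49.8 (1.87, SE 0.37, adjusted p = 0.00753), and Mbtps1, a protease that activates the sterol regulators, measured 30.9 and 51.9 against 7.23 and 4.70 (2.59, SE 0.51, adjusted p = 0.00753). Hiatl1, a putative transporter, measured 566 and 429.7 against 116 and 170.1 (1.81, SE 0.29, adjusted p = 0.00149). Hiatl1 and Sbno2, the latter chosen after its values were seen, complete the 7 genes that passed without GF replicate 3, with Malat1, Gm37376, Tlr13, Il4ra and Msn. Without SPF replicate 3, Malat1 and Gm37376 were the 2 that passed.

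**Figure D4:**
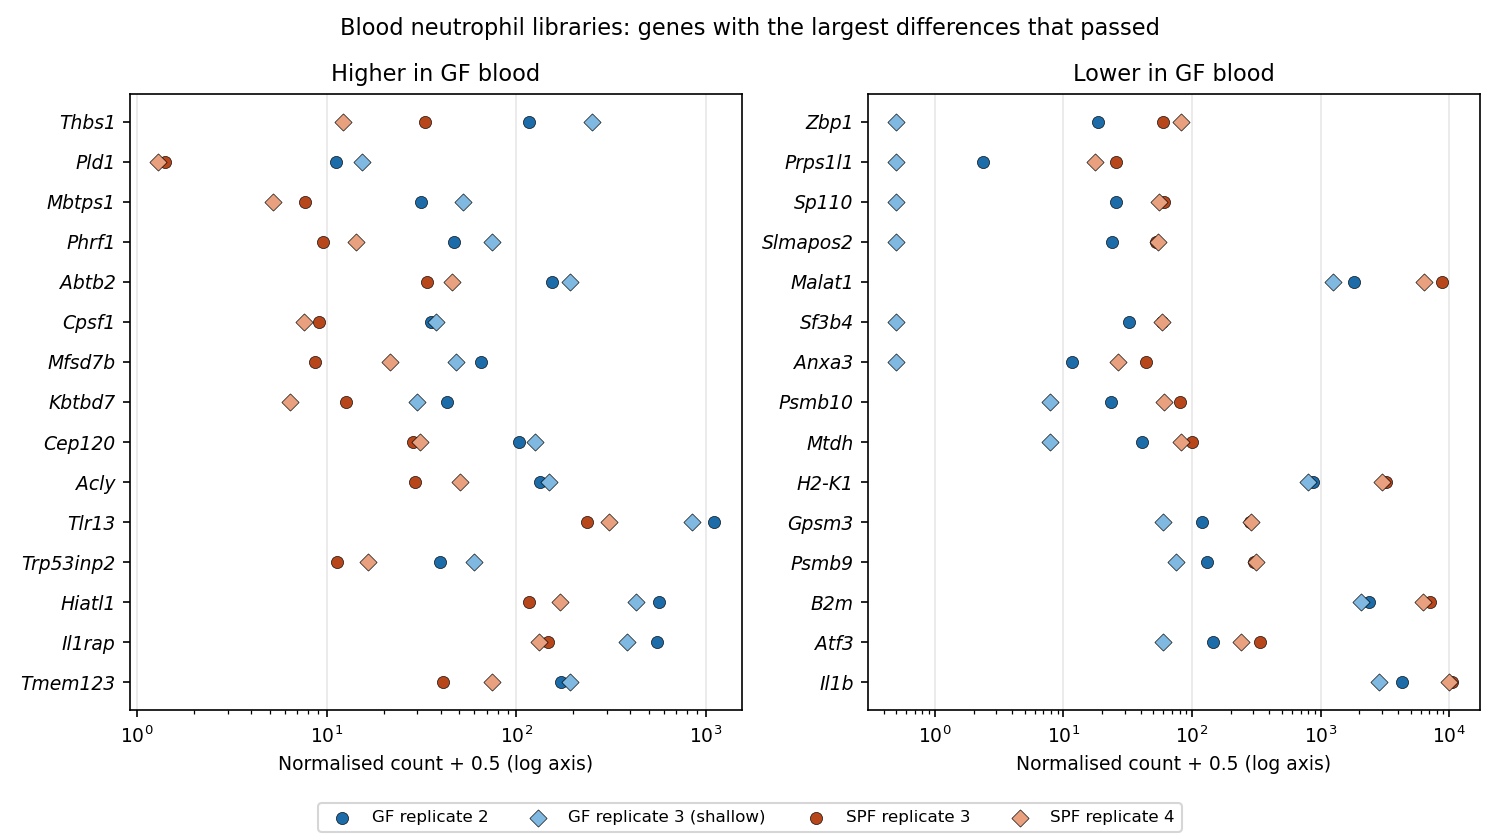
Normalised count plus 0.5 (log axis) in each of the 4 blood libraries for the 15 genes with the largest increase (left) and the 15 with the largest decrease (right) among those that passed, 1 point per library. No gene overlaps between GF and SPF, and 6 of the genes on the right have 0 reads in GF replicate 3, which stands at 0.5.

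Monocyte transcripts did not move as 1 group. Of the 7 tested markers, Csf1r, the receptor for M-CSF, rose (1150.5 and 741 in GF against 406 and 571 in SPF blood, 0.94, adjusted p = 0.042) and Ly6c2 fell (136 and 88.9 against 350.0 and 292, -1.50, adjusted p = 0.0258). The shares over all tested genes were 0.795% higher and 0.53% lower. Ly6c2 is a Ly6 family antigen of classical monocytes whose reads may be shared with near-identical family members. With the length trend removed neither passed (Csf1r 0.62, adjusted p = 0.212, and Ly6c2 -0.78, adjusted p = 0.227). Cx3cr1 was at 1.40 in GF replicate 2 and at 0 in the other libraries.

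The same contrast was then set beside spleen and lung, each with 3 GF and 3 SPF libraries in the same model. In spleen 27 genes passed, which is 0.325%, and in lung 2, which is 0.0241%. Of the 110 genes that passed in blood, 60 had the same sign in spleen and 82 in lung. Those called in spleen as well were Thbs1 and Cyth1, the latter chosen after its values were seen and with an adjusted p of 0.0943 in blood with the length trend removed, and the 1 called in lung was Ifngr2. By the test of the difference itself, 63 genes differed between blood and spleen, 29 of them with a higher and 34 with a lower value in blood, and 29 of the 110 were among them. B2m passed this test (-1.41, adjusted p = 0.0401) and so did Cfl1 (-2.00, adjusted p = 0.00506) and Malat1 (-2.60, adjusted p = 3.7e-05). H2-K1 did not (-1.29, adjusted p = 0.0979), nor did Tlr13 (1.14, adjusted p = 0.126). For genes outside this test a call in blood without one in spleen does not show that the tissues differ.

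**Figure D5:**
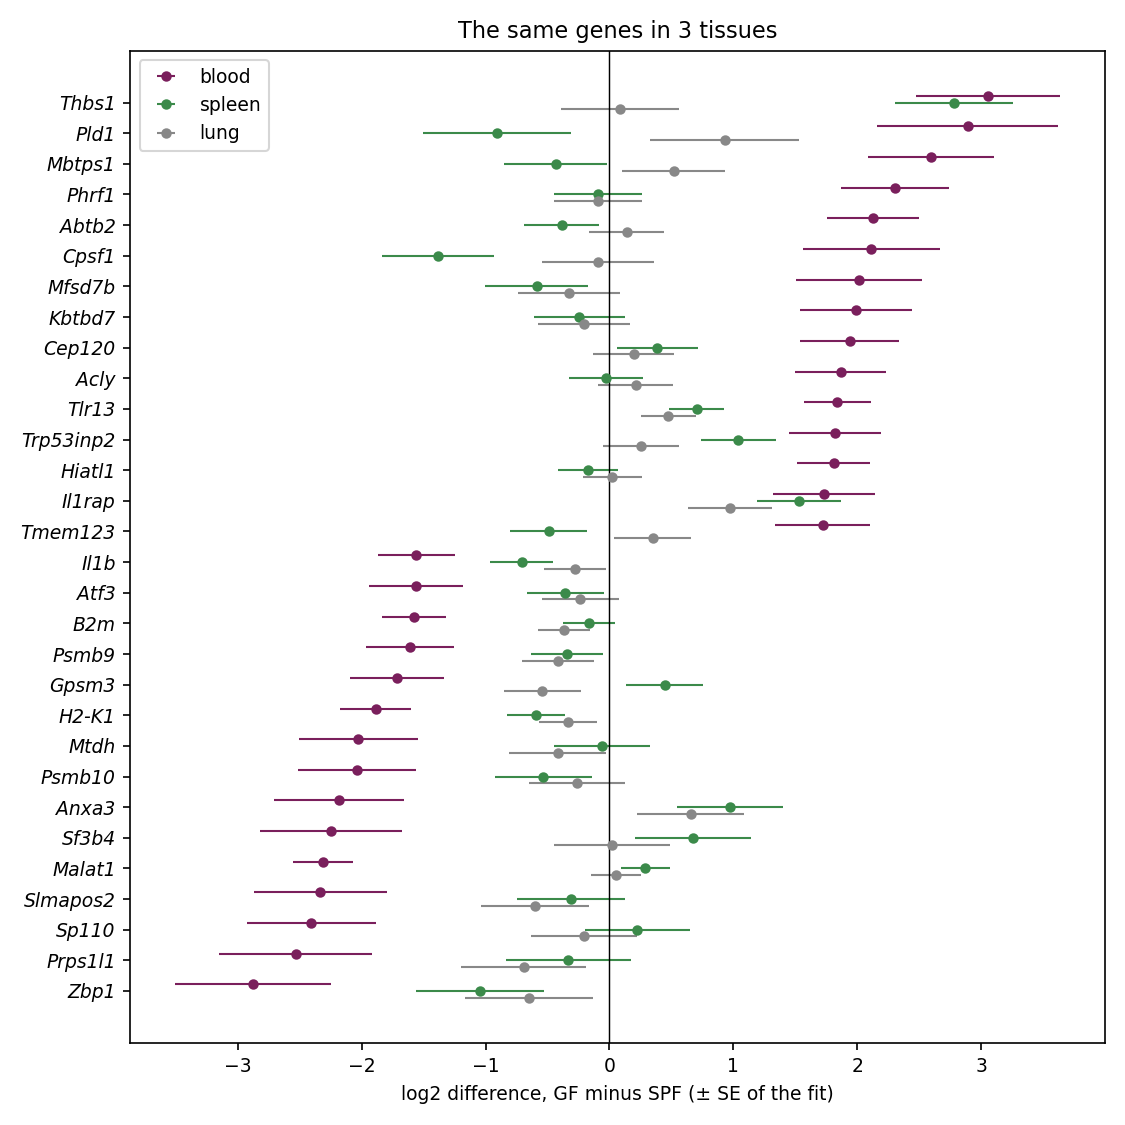
Log2 difference GF minus SPF (points, with ± SE of the fit) in blood, spleen and lung for the 30 genes with the largest differences that passed in blood. Thbs1 lies at 3.06 in blood and 2.78 in spleen, while Malat1 lies at -2.31 in blood and at 0.29 and 0.05 in spleen and lung.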

How the data were processed

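The deposited table holds 10296 genes in 16 libraries. Its values, treated here as signal, were deposited by the authors on a per-million scale and have the form of an expected count plus 0.5 reads divided by an effective library size, as read from the values. CASAVA, RSEM 1.3.1, limma and the mm10 build are named per the submitters' processing notes. IDs were matched to GENCODE M21 (10275 matched, 21 did not).

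Differences were fitted with limma 3.58.1 in R 4.3.3 on log2(value + 1), with means of 6 groups over 16 libraries, empirical Bayes moderation with trend and robust settings, and two-sided p-values adjusted by Benjamini-Hochberg over the genes of a contrast (threshold 0.05). A gene was tested where 2 or more libraries reached 10, which left 8299 and removed 1997. Fold changes on this scale can understate changes of low genes. The deposited offset, which is larger in GF replicate 3, can also move low genes towards higher GF values. Gzma, at 0 in every blood library, had a log2 difference of 0.99. An exact permutation test of 2 against 2 cannot give a p below 0.333. The fit was tested on simulated data. Alternatives changed the pseudocount, filter, scaling, prior, weights, depth, offset, samples and length trend.

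Named genes were the 15 with the largest difference in each direction among those that passed, did not overlap and averaged 10 or more in whichever group was higher, up to 4 per list by p, 5 per direction for each test between tissues, and Ly6g, S100a8, S100a9, Csf3r and Cxcr2. The others are marked in the text as chosen after their values were seen. The comparison and the 28 lists were chosen with earlier results of these data known. Same-numbered libraries did not deviate together, so replicate numbers were not used as pairs.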

Additional observations from a re-analysis of the deposited data

Results flagged for a closer look

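The results listed here passed the limma test of the blood difference against the spleen or lung difference (adjusted p under 0.05), and each value is the blood log2 difference GF minus SPF less that of the other tissue. They are only part of the 63 genes that passed against spleen. Malat1 passed against both, at -2.60 for spleen (adjusted p = 3.7e-05) and -2.36 for lung (adjusted p = 0.000253), and Gm37376 within its locus stood at -2.92 against spleen.

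Lower in blood than in spleen by this measure were the interferon-stimulated genes Isg15 (-2.49) and Irf7 (-1.73) and the class I light chain B2m (-1.41). So were the actin regulators Cfl1 (-2.00), Vasp (-1.97) and Capg (-1.94), Ly6c2 (-2.00), Msrb1 (-1.69), which reduces oxidised methionine, and Gpsm3 (-2.16). Higher were Abtb2 (2.51), Phrf1 (2.40), Tmem123 (2.21), Hiatl1 (1.98), Sbno2 (1.64) and Stat5b (1.45). In all of these lower genes except B2m the blood difference was below 0 and the spleen difference above it. The spleen difference of B2m was -0.17.

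The remaining genes listed here had 7 reads or fewer in GF replicate 3. They were Cmas (4.76), Nr2f6 (4.56), Bag1 (4.52), Scaf4 (4.52), Cry1 (4.003), Pld1 (3.80), Cpsf1 (3.50) and Mbtps1 (3.03) above 0. Below 0 they were Dusp16 (-3.47), Psmd7 (-3.36), Macf1 (-3.17), Anxa3 (-3.16), Sik2 (-2.95) and Glul (-2.53). Of these, Dusp16, Psmd7, Macf1 and Anxa3 had 0 reads in that library. The mean in GF spleen was 0 for Cmas, Nr2f6 and Scaf4 and 0.82 for Bag1. In SPF spleen it was 15.3, 13.3, 9.73 and 45.9 for these genes in that order. A single read was worth 2.47 to 6.01 normalised counts in the GF spleen libraries. Without GF replicate 3, 2 genes passed against spleen.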

How the results depend on the processing

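No named gene that passed changed sign under any of the 15 alternatives or any left-out library. For left-out blood libraries this was fixed beforehand, since the GF and SPF values of these genes did not overlap. Left-out spleen and lung libraries do not enter the blood difference. The number passing (110 in blood, 66 higher and 44 lower, 63 against spleen, 1 against lung) did change. Without the trended and robust prior 0 genes passed in blood (0 higher, 0 lower), 0 against spleen and 0 against lung. In blood 250 passed among genes with a value of at least 100 (131 higher, 119 lower), 288 with array weights (141 and 147), 611 with the blood libraries alone (289 and 322), 780 with limma-voom (490 and 290), 52 with the offset taken off (32 and 20) and 55 with the length trend removed (24 and 31). Quantile rescaling gave 24 lower (70% of 80 calls higher) and median-ratio rescaling 72 lower. Against spleen 106 passed with median-ratio rescaling, 101 with array weights, 139 with limma-voom, 4 with the offset taken off and 17 with libraries thinned to the shallowest. Against lung these were 4 with median-ratio rescaling, 37 with array weights, 67 with limma-voom, 15 thinned, 3 with no filter and 0 with the length trend removed. With the replicate block 76 passed in blood (37 higher, 39 lower), 16 against spleen and 0 against lung. Over same-numbered pairs the correlation of deviations ran from -0.13 to 0.24, and the blood groups share 1 number, so the block pairs nothing known.

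Leaving out 1 library gave 2 to 351 genes passing in blood, 0 to 186 higher and 2 to 221 lower, 2 to 207 against spleen and 1 to 28 against lung. The lone library of a group is then assumed to vary like the other groups. The 351 came without spleen SPF replicate 1, and without spleen GF replicate 1 the number was 203. The causes were not tested. Count tests were not run, because whole reads were recovered, within 0.05, for 91.4% to 98.6% of low values in the blood libraries. Depth limits the GF group most, with 1550 genes at 10 or more reads in GF replicate 3 against 6808 to 7262 in the other 3.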
